A study of Mus musculus with 24 samples.

Results

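The 10 genes described here mark the inhibitory interneurons of the cerebral cortex and their main subtypes: Gad1, Gad2, Pvalb, Sst, Vip, Npy, Cck, Reln, Calb2 and Lhx6. They were chosen by name, to tell members that followed olfactory bulb tissue in the samples from those that followed cortex, and all 10 were found among the 18240 genes of the deposited table. They were measured by bulk RNA sequencing of tissue labelled prefrontal cortex, taken from C57BL/6J mice at postnatal day 40. The 24 libraries fell into 4 arms of 6, with 3 from females and 3 from males in each. The HT fluoxetine, HT lithium and HT vehicle arms held mice with a heterozygous Dyrk1a allele named I48X, given fluoxetine (a serotonin reuptake inhibitor), lithium (a mood stabiliser) or vehicle. The WT vehicle arm held wild-type mice given vehicle. The allele is carried by the whole animal as labelled, no wild-type mice given a drug were analysed here, and neither dose nor duration of treatment is stated in the labels. Whether each library came from an animal of its own is not stated either, so the p-values reflect how these samples spread, part of which may be technical.

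Inhibitory interneurons make the transmitter GABA from glutamate with the enzymes GAD67, encoded by Gad1, and GAD65, encoded by Gad2. In the cortex, cells from the medial ganglionic eminence depend on the transcription factor Lhx6 and become parvalbumin or somatostatin cells. Cells from the caudal ganglionic eminence include those with Vip, and many of those with calretinin (Calb2) or reelin (Reln). Npy is a peptide of several of these classes, and Cck is made by a class of basket cells and also by many excitatory cells. The olfactory bulb, which lies just in front of the frontal cortex, is rich in GABA-making granule and periglomerular cells. Many of the bulb's periglomerular cells hold calretinin, and its mitral cells express reelin.

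The members lie on 8 chromosomes of mouse build GRCm38 as annotated in GENCODE M21. Gad1 (ENSMUSG00000070880) spans chr2:70553072-70602014, Gad2 (ENSMUSG00000026787) spans chr2:22622205-22693874 and Lhx6 (ENSMUSG00000026890) spans chr2:36081953-36105408. Reln (ENSMUSG00000042453) spans chr5:21884454-22344702, Npy (ENSMUSG00000029819) spans chr6:49822710-49829507 and Calb2 (ENSMUSG00000003657) spans chr8:110137502-110168210. Cck (ENSMUSG00000032532) spans chr9:121489824-121495694 and Vip (ENSMUSG00000019772) spans chr10:5639218-5647617. Pvalb (ENSMUSG00000005716) spans chr15:78191114-78206400 and Sst (ENSMUSG00000004366) spans chr16:23889573-23890958. All are protein-coding, and 0 of the 10 overlapped another gene of the table.

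Promoter sequence from RefSeq (GRCm38.p6) was matched by symbol for 9 of the 10 members. The 3 windows below show the 250 bases before the start site of a member that was higher with bulb content (Reln) and of 2 that were lower (Vip, Pvalb). The fourth sequence is a 30-base stretch before the Sst start site. They are printed 5′ to 3′ on the gene's own strand, with motif matches in capitals.
Reln, chr5:22344706-22344955, minus strand: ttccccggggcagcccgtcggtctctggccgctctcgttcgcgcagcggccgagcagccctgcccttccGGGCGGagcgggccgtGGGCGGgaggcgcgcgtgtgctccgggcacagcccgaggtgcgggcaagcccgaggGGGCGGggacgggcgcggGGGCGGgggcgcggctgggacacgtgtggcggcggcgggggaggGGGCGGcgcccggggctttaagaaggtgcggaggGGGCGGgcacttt
Vip, chr10:5638968-5639217, plus strand: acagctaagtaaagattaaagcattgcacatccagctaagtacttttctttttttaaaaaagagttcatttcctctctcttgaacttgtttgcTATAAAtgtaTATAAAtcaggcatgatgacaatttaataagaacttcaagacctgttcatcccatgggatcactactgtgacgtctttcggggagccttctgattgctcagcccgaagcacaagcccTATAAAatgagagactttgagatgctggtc
Pvalb, chr15:78206401-78206650, minus strand: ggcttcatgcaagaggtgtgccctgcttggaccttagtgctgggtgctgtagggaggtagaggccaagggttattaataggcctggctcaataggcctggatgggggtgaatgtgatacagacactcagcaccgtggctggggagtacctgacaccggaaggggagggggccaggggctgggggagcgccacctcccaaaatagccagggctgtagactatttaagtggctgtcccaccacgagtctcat
Sst, chr16:23890874-23890903, minus strand: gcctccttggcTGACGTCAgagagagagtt

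The motifs were the cyclic AMP response element TGACGTCA, the TATA box TATAAA, the homeodomain core TAATTA and the GC box GGGCGG, each searched on both strands in the 250 bases before a start site. The Sst stretch holds TGACGTCA with its first base at position -48 from the start site, and 1.55% of 32851 RefSeq promoter windows of that length hold this motif. GENCODE M21 places that stretch inside an exon of Sst, whose annotated start lies further upstream. The Vip window holds TATAAA at -157, -147 and -30, a motif found in 12.4% of the windows. The Reln window holds GGGCGG 6 times, and 32.7% of windows hold it. Of the 9 members with a window, Gad1, Lhx6 and Npy hold GGGCGG too, and Gad1 also holds TATAAA. Both motifs were thus found in members higher and in members lower with bulb content. The Pvalb window holds 0 matches to these 4 motifs, and 4.84% of all windows hold TAATTA. None of the printed matches overlapped another, and no exon of GENCODE M21 overlaps the Reln, Vip or Pvalb window. A match here describes letters, not a bound site.

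Per kilobase of exon, a rough scale for comparing genes, Cck, Sst and Npy were the most abundant members. The length counts every annotated exon of a gene once, over all its transcripts. It can exceed the length of any single transcript and so understate a gene such as Reln (23738 bases). Their median normalized read counts over 24 libraries were 5351, 5145 and 3553 per kilobase. Gad1 followed at 1224, Gad2 at 692, Calb2 at 625.3 and Pvalb at 507 per kilobase. Vip, Reln and Lhx6 were the least abundant at 249.3, 118 and 88.2 per kilobase. Even the member with the fewest reads, Lhx6, had at least 128 recovered reads in every library.

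The members differed widely in how much they varied between libraries. On the normalized read count scale used from here on, Calb2 ran from 183 to 8223 with a median of 1090, a 44.9-fold range. Gad1 ran from 5871 to 25973 (4.42-fold), Lhx6 from 132 to 522 (3.96-fold), Reln from 1756 to 6540 (3.72-fold) and Sst from 1424 to 4798 (3.37-fold). The steadiest member was Npy, which stayed between 1651 and 2280 in all 24 libraries, a 1.38-fold range. Between these lay Pvalb (2.86-fold), Gad2 (2.40-fold), Cck (2.05-fold) and Vip (1.98-fold).

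The libraries were 24133344 to 35940460 recovered reads deep. The bulb score of a library is the mean of log2(value + 1) over Cdhr1, Doc2g and Eomes, genes of mitral and tufted cells of the olfactory bulb. It ran from 11.7 to 12.3 in 6 libraries (HT fluoxetine female 1 and male 1, HT lithium male 1, HT vehicle female 2 and male 3, WT female 2), called bulb-high, and from 4.19 to 10.7 in the other 18. It averaged 9.23 ± 2.83 in HT fluoxetine, 8.31 ± 2.88 in HT lithium, 8.15 ± 2.96 in HT vehicle and 9.30 ± 2.04 in WT vehicle libraries (SD, n = 6 each). The cortical marker Slc17a7, a vesicular glutamate transporter, was between 28907 and 34417 in bulb-high libraries and between 40481 and 53751 in the others. HT vehicle male 1 had the highest count of the striatal receptor gene Drd2 (1379), WT female 1 the second (371), and HT vehicle female 1 the highest of the choroid plexus gene Ttr (3407). The gene-level count of Dyrk1a was 2476 ± 97.5 in HT fluoxetine, 2447 ± 113 in HT lithium, 2355 ± 61.2 in HT vehicle and 2200 ± 90.8 in WT vehicle libraries (SD, n = 6 each). It was thus not lower in HT libraries, and the mean of every HT arm lay above that of WT vehicle. Ranges were 2353 to 2589 in HT fluoxetine, 2254 to 2584 in HT lithium, 2254 to 2431 in HT vehicle and 2088 to 2349 in WT vehicle. Those of HT fluoxetine and WT vehicle were apart, as were those of 0.232% of all genes in that pair. The gene-level count does not tell the alleles apart, so it does not check the genotype labels.

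**Figure D1:**
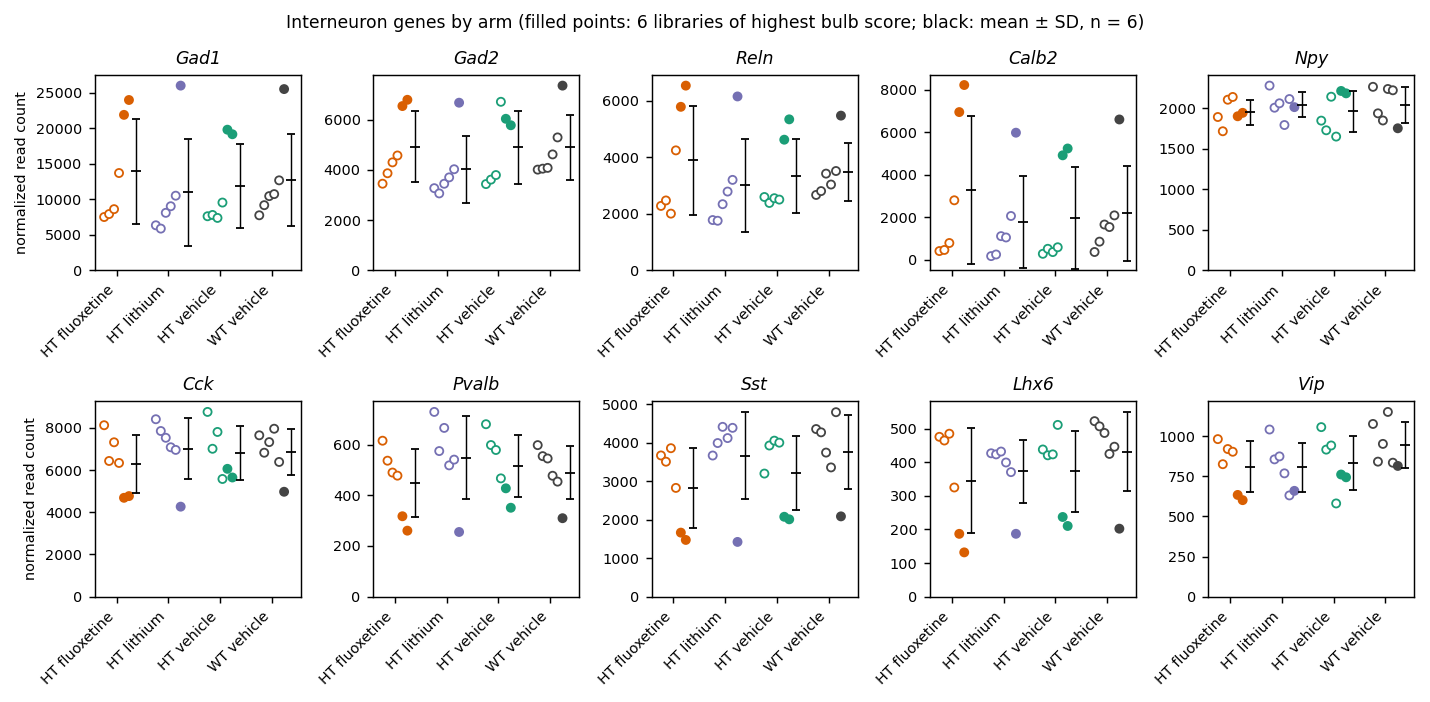
Normalized read count of each member in every library, by arm; points within an arm are ordered by bulb score, filled points are the 6 bulb-high libraries and black bars are the mean ± SD of 6 libraries. The filled points sit above all open ones for Gad1, Reln and Calb2 and below all open ones for Pvalb, Sst and Lhx6, and the ranges of the 4 arms overlap for every member.

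The GABA-making enzymes and 2 further members were higher where the bulb score was higher. The slope of each gene on the score was fitted with limma over all 24 libraries with the 8 arm-by-sex groups as terms, as a change in log2(value + 1) per unit of score. By this test 9 of the 10 members were called at an adjusted p under 0.05, 4 higher and 5 lower. Of all 16825 genes tested, 50.7% were called, 25.2% higher and 25.5% lower, so a slope in either direction was common in these libraries. edgeR on recovered reads called 9 members too, against 50.8% of all genes (25.9% higher, 25% lower). The split below therefore sorts the members and does not set them apart from other genes. In bulk tissue, fewer cells of a type and less RNA per cell cannot be told apart.

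Calb2, the calcium-binding protein calretinin, had the steepest slope. Its count was 4919 to 8223 (median 6294) in the 6 bulb-high libraries and 183 to 2806 (median 698) in the other 18, a 9.01-fold ratio of medians. Every bulb-high library lay above every other one. The slope was 0.65 ± 0.03 (SE, adjusted p = 1.08e-12), and adding the score to the group means removed 97.1% of the sum of squares within groups. Over the lower 18 libraries the slope was 0.54 ± 0.03 (adjusted p = 1.97e-07), so Calb2 tracked the score through its whole range.

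Gad1, encoding GAD67, was 19135 to 25973 (median 22907) in bulb-high libraries and 5871 to 13685 (median 8346) in the others, without overlap. Its slope was 0.23 ± 0.02 (adjusted p = 8.06e-07). Reln, the secreted protein that guides neuronal migration, was 4625 to 6540 (median 5634) in bulb-high libraries and 1756 to 4248 (median 2576) in the others, again without overlap, with a slope of 0.19 ± 0.02 (adjusted p = 3.29e-06). Gad2, encoding GAD65, moved less. It was 5777 to 7356 (median 6608) in bulb-high libraries and 3064 to 6711 (median 3939) in the others, and its slope was 0.12 ± 0.02 (adjusted p = 4.37e-05). The ranges of Gad2 overlapped through HT vehicle male 1, the library with the highest Drd2, where Gad2 stood at 6711 and Gad1 at 9533. The part of striatal tissue in that value was not tested.

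The pair of enzyme genes thus shifted in ratio. Gad1 was 3.28 to 3.89 times Gad2 in the 6 bulb-high libraries and 1.42 to 2.99 times Gad2 in the other 18, on the normalized count scale. The ratio was lowest in HT vehicle male 1. Slc32a1, the vesicular GABA transporter and no member, had a slope of 0.14 ± 0.02 (adjusted p = 1.99e-05), between those of the 2 enzyme genes.

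The 5 members that were lower at a higher bulb score included both main products of the medial ganglionic eminence. Lhx6, the transcription factor of that lineage, was 132 to 237 (median 195) in bulb-high libraries and 325 to 522 (median 435) in the others. Sst, the peptide somatostatin, was 1424 to 2088 (median 1839) in bulb-high libraries and 2829 to 4798 (median 3963) in the others. Both sets of ranges were apart, and the medians of the other libraries were 2.23 times and 2.16 times those of the bulb-high libraries for Lhx6 and Sst. The slopes were -0.18 ± 0.03 for Lhx6 (adjusted p = 1.37e-04) and -0.14 ± 0.03 for Sst (adjusted p = 0.00122).

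Pvalb, the calcium-binding protein of fast-spiking basket and chandelier cells, was 255 to 427 (median 313) in bulb-high libraries and 454 to 729 (median 550) in the others. Those ranges were apart too, and the slope was -0.13 ± 0.02 (adjusted p = 1.41e-05). Cck, the peptide cholecystokinin, was 4266 to 6059 (median 4870) in bulb-high libraries and 5578 to 8756 (median 7321) in the others, with a slope of -0.08 ± 0.02 (adjusted p = 2.3e-04). Vip, vasoactive intestinal peptide, was 601 to 814 (median 701) in bulb-high libraries and 581 to 1151 (median 909) in the others. Its slope was -0.07 ± 0.02 (adjusted p = 0.00268). The ranges of Cck and Vip overlapped, in both genes with HT vehicle male 1 as the lowest of the other 18 libraries. Slc17a7, a gene of excitatory cells, had a slope of -0.09 ± 0.02 (adjusted p = 2.2e-04), close in size to those of Cck and Vip.

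Npy, the neuropeptide Y gene, was the member without a called slope. It was 1754 to 2214 (median 1980) in bulb-high libraries and 1651 to 2280 (median 2035) in the others, so the ranges lay on top of each other. The slope was 0.01 ± 0.01 (adjusted p = 0.436), and the score removed 5.14% of its sum of squares within groups. That share was 46.8% to 83.2% for the 8 members other than Npy and Calb2.

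In all, 6 of the 10 members had bulb-high and other ranges that did not overlap, 3 above and 3 below. Among all 16825 genes the share without overlap was 18.4%, with 8.46% above and 9.91% below.

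**Figure D2:**
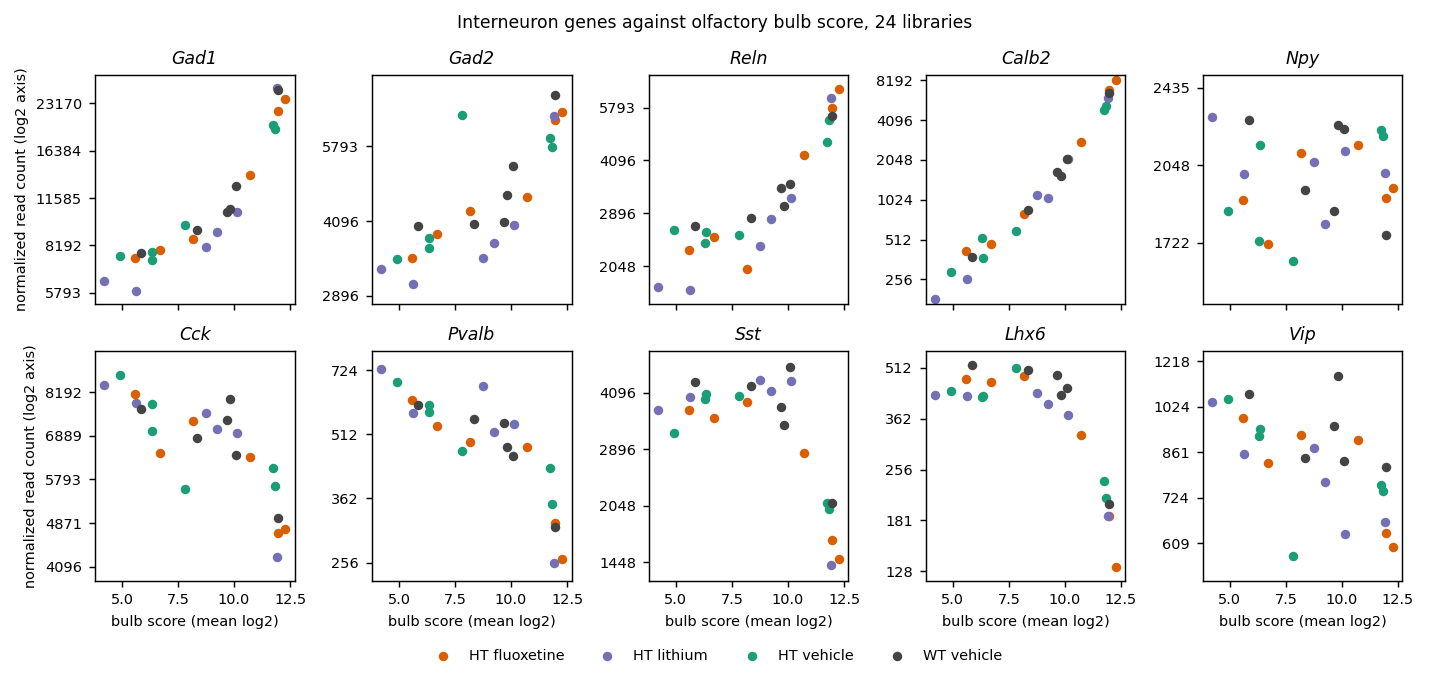
Normalized read count (log2 axis, with a scale of its own for each gene) of each member against the bulb score in 24 libraries, coloured by arm. Calb2 climbs along the whole score, Gad1 and Reln steepen at its high end, Sst and Lhx6 drop at the high end of the score, and Npy stays within 1651 to 2280 throughout.

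The shape of the relation differed between members. Without the 6 bulb-high libraries, 4 of the 10 members kept a called slope over the remaining 18, against 6.25% of all genes (3.85% higher, 2.4% lower). These were Calb2 (given above), Gad1 (0.13 ± 0.01, adjusted p = 1.07e-04), Reln (0.11 ± 0.02, adjusted p = 0.0188) and Pvalb (-0.07 ± 0.02, adjusted p = 0.0186). Gad2 had 0.08 ± 0.02 (adjusted p = 0.0644), Vip -0.07 ± 0.03 (adjusted p = 0.175) and Cck -0.05 ± 0.02 (adjusted p = 0.161).

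Sst and Lhx6 lost most of their slope in those 18 libraries. Sst had 0.01 ± 0.02 (adjusted p = 0.89), with the sign turned, and Lhx6 had -0.04 ± 0.02 (adjusted p = 0.227). Among the 18, HT fluoxetine female 3 had the highest score (10.7) and the lowest Sst (2829) and Lhx6 (325). Leaving out any single library kept all 9 calls, with slopes of -0.17 to -0.12 for Sst and of -0.20 to -0.15 for Lhx6.

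**Figure D3:**
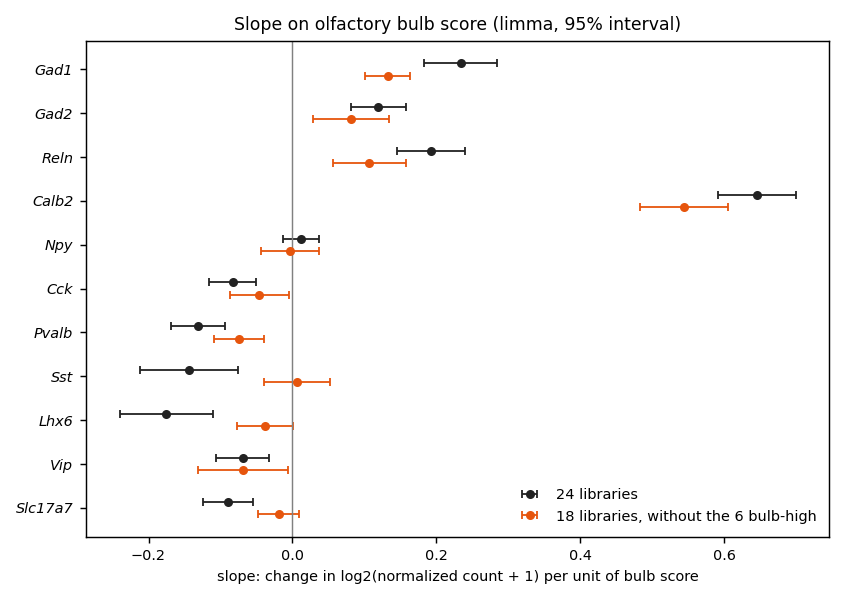
Slope on the bulb score with 95% intervals for the 10 members and the excitatory gene Slc17a7, over 24 libraries (black) and without the 6 bulb-high libraries (orange). Gad1, Gad2, Reln and Calb2 lie right of 0 in both fits, while the Sst slope moves from -0.14 over 24 libraries to 0.01 over 18.

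Lists of related genes were read in the same slope fit. Of 8 genes for GABA packaging, uptake, breakdown and synapses, 7 were higher and 1 lower with the score. The largest slope was that of the GABA transporter Slc6a11 (0.24 ± 0.02, adjusted p = 4.27e-07), followed by Slc32a1. The GABA transaminase gene Abat was higher by less (0.06 ± 0.01, adjusted p = 6.22e-05). The list's median slope was 0.05, against 0.00 over all genes (7.2e-04 before rounding).

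The lists of ganglionic eminence factors held called genes on both sides, as 25.2% and 25.5% of all genes were called higher and lower. Of 12 listed factors of the medial eminence, 10 were tested, and 5 were higher and 3 lower. Those higher included the homeobox genes Dlx1, Dlx2, Dlx5 and Dlx6, which also act in bulb interneurons. Dlx1 had 0.45 ± 0.03 (adjusted p = 3.9e-09), Dlx2 0.40 ± 0.03 (adjusted p = 2.95e-09) and Dlx5 0.37 ± 0.03 (adjusted p = 5.23e-08). Those lower included Satb1 (-0.08 ± 0.01) and Sox6 (-0.04 ± 0.01), which act in cortical cells of the Lhx6 lineage. The list's median slope was 0.09.

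Of 7 factors and markers of the caudal eminence, 4 were higher and 3 lower. Sp8, a zinc finger factor that bulb interneurons also use, had 0.66 ± 0.03 (adjusted p = 4.38e-11), a slope close to that of Calb2, and it is also on the list of bulb markers. Adarb2 had 0.20 ± 0.02 (adjusted p = 3.93e-06), the nuclear receptor gene Nr2f2 0.15 ± 0.02 (adjusted p = 2.24e-05) and the serotonin receptor gene Htr3a 0.10 ± 0.01 (adjusted p = 3.16e-05). Those lower were Npas1 (-0.15 ± 0.02, adjusted p = 4.61e-05), Prox1 (-0.05 ± 0.02, adjusted p = 0.0114) and Nr2e1 (-0.04 ± 0.01, adjusted p = 5.28e-04). The median slope of the 7 was 0.10.

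Genes that mark single cortical classes did not all move with the class's naming gene. Of 10 parvalbumin cell genes, 3 were lower with Pvalb: the synaptotagmin Syt2 (-0.18 ± 0.03, adjusted p = 4.11e-05), the potassium channel Kcnc2 (-0.06 ± 0.01, adjusted p = 4.1e-05) and the muscle-type cytochrome oxidase subunit Cox6a2 (-0.10 ± 0.02, adjusted p = 0.00113). The potassium channel subunit Kcnab3 (0.17 ± 0.02, adjusted p = 5.71e-06) and Kcnc1 (0.02 ± 0.01) were higher. Of 9 somatostatin cell genes, the retinol carrier Rbp4 was lower with Sst (-0.12 ± 0.03, adjusted p = 5.4e-04). The nitric oxide synthase Nos1 (0.15 ± 0.02, adjusted p = 2.69e-06) and the substance P receptor Tacr1 (0.33 ± 0.04, adjusted p = 1.24e-05) were higher. Median slopes were -0.03 for the parvalbumin and 0.01 for the somatostatin list.

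Of 11 genes of Vip and neurogliaform cells, 3 were higher and 5 lower. Ndnf (0.23 ± 0.02, adjusted p = 7.82e-07) and the growth factor Igf1 (0.24 ± 0.03, adjusted p = 1.96e-05) were higher, and the cannabinoid receptor Cnr1 (-0.10 ± 0.02, adjusted p = 4.24e-05) and Lamp5 (-0.09 ± 0.02, adjusted p = 3.4e-04) were lower. Of 16 genes for peptide receptors, peptide storage, reelin signalling and calbindin, 3 were higher and 10 lower. The Vip receptor Vipr1 (-0.12 ± 0.02, adjusted p = 4.77e-05) and the calcium-binding protein Calb1 (-0.11 ± 0.02, adjusted p = 1.4e-04) were lower. Secretogranin Scg2 (0.09 ± 0.01, adjusted p = 6.52e-06) and the reelin receptor Lrp8 (0.07 ± 0.01, adjusted p = 1.15e-04) were higher. Median slopes of these lists were -0.01 and -0.06.

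Markers of other tissues gave a frame for these counts. All 8 markers of cortical excitatory cells were lower with the score, with a median slope of -0.12, and of the 6 tested bulb markers outside the score 5 were higher. The 3 score genes follow the score by construction. Of 10 striatal markers 0 were higher and 5 lower, and of 4 tested choroid plexus markers 0 were called. Of 4 markers each, 3 astrocyte genes were higher, 2 microglial genes were lower, 0 myelin genes were called, and 1 endothelial gene was higher and 1 lower.

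**Figure D4:**
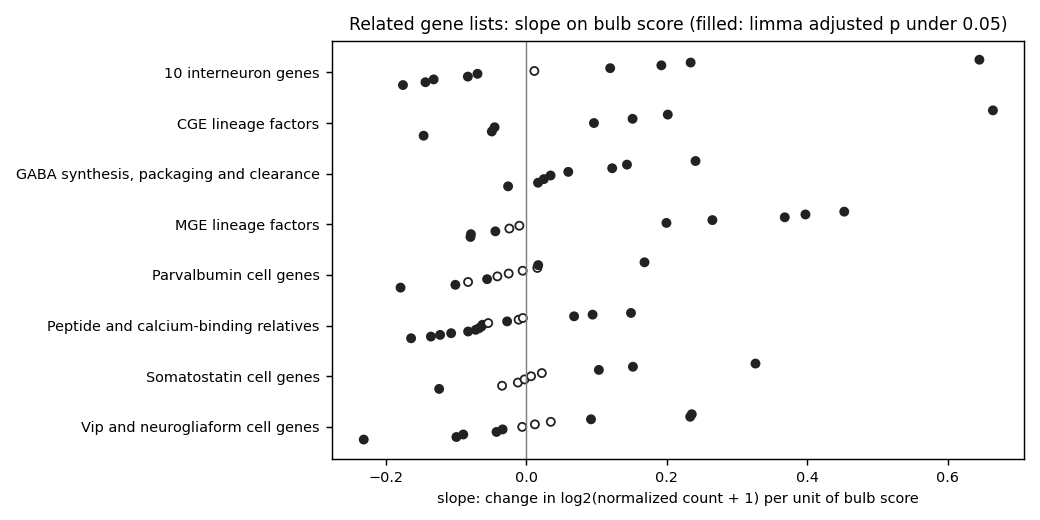
Slope on the bulb score for the 10 members and for the tested genes of each related list, 1 point a gene, filled where the limma adjusted p was under 0.05. Calb2 (0.65) and Sp8 (0.66) lie furthest to the right, and every list has called genes on both sides of 0.

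No member was called for a difference between arms. The intervals given below were wide for several members, so this does not show that the arms were alike. In all 6 comparisons between arms 0 of the 10 members were called by limma, edgeR or DESeq2, and 0 of 60 pairs of arm ranges were apart. Among all 16825 genes, 0.47% (HT fluoxetine and HT vehicle) had ranges apart at most and 0.166% (HT lithium and HT vehicle) at least, with 0.321%, 0.232%, 0.214% and 0.19% in the other pairs. Without the 6 bulb-high libraries 0 members were called in each of the 6, against 0% to 0.0119% of all genes (0.00594% for HT lithium against HT vehicle). The lowest p of 30 two-sided exact permutation tests of 6 against 6 libraries was 0.234, for Vip in HT vehicle against WT vehicle.

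The first comparison, HT vehicle against WT vehicle, addresses the effect of the Dyrk1a allele. Vip was 581, 838 and 1056 (lowest, median, highest) in HT vehicle libraries and 814, 896 and 1151 in WT vehicle libraries. The HT vehicle range reached lower and the 2 overlapped. The difference was -0.19 ± 0.16 on the log2 scale (95% interval -0.52 to 0.13, two-sided exact permutation p = 0.234), and HT vehicle libraries were below the WT mean in 4 of 6 cases. The lowest Vip value was that of HT vehicle male 1, the library with the highest Drd2, and without it the difference was -0.09. Over 26 other settings the Vip difference ran from -0.31 to -0.09. Sst was 2011, 3566 and 4057 in HT vehicle libraries and 2088, 4010 and 4798 in WT vehicle libraries, a difference of -0.24 ± 0.31 (interval -0.89 to 0.40). Both arms held bulb-high libraries at the low end of Sst.

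Lhx6 was 210, 422 and 511 in HT vehicle libraries and 202, 467 and 522 in WT vehicle libraries, with a difference of -0.22 ± 0.34 (interval -0.93 to 0.49). Calb2 was 291, 562 and 5240 in HT vehicle libraries and 376, 1607 and 6604 in WT vehicle libraries, with a difference of -0.62 ± 1.004 (interval -2.72 to 1.48). The sign of this value turned with the setting: it was 0.15 with edgeR and with DESeq2, 0.12 with the bulb score as covariate and -1.50 without the 6 bulb-high libraries, so no direction is given for Calb2. Npy had the narrowest interval, from -0.23 to 0.11 around -0.06. The other 5 members differed by between -0.12 (Gad1) and 0.07 (Pvalb). The members' median difference was -0.11, against -0.00 over all genes (-0.0024 before rounding). By limma 0 of 16825 genes (0%) were called, 455 had an unadjusted p under 0.05, and edgeR and DESeq2 called 0.

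The bulb score itself was lower by 1.15 in HT vehicle than in WT vehicle libraries (two-sided exact permutation p = 0.455). Its part in the differences was read by adding the score and its square to the fit, a setting chosen after seeing the data. Calb2 then stood at -0.03 ± 0.10, Gad1 at 0.00 ± 0.08 and Reln at -0.01 ± 0.09. The intervals became much narrower. Vip stood at -0.29 ± 0.12 (unadjusted p = 0.0241), Lhx6 at -0.22 ± 0.08 (unadjusted p = 0.0147) and Sst at -0.20 ± 0.09 (unadjusted p = 0.044). Over all genes their limma adjusted p-values were 0.46, 0.422 and 0.516, so these 3 did not pass, and in this setting 0.0416% of all genes were called. With the score alone as covariate, Vip stood at -0.27, Lhx6 at -0.42 and Sst at -0.41. The lowest limma adjusted p of the 10 members was 0.511 there, and 5 of 16825 genes were called. The size of the Lhx6 and Sst differences thus depended on the form of the covariate. Of the striatal markers 10 of 10 were on the higher side in HT vehicle libraries (median 0.18), as were 4 of 4 choroid plexus markers (median 0.93), and 9 of 9 bulb markers were on the lower side (median -0.78), with 0 called. The summed striatal count was 5422 to 36224 in HT vehicle and 4876 to 17510 in WT vehicle libraries. The part of choroid plexus content in the members' values was not tested. With the score, its square and Drd2 as covariates Vip stood at -0.22 ± 0.09, Lhx6 at -0.21 ± 0.08 and Sst at -0.21 ± 0.10.

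The second comparison, HT fluoxetine against HT vehicle, addresses the drug in mice with the allele. Calb2 was 420, 1802 and 8223 (lowest, median, highest) in HT fluoxetine libraries and 291, 562 and 5240 in HT vehicle libraries, and each arm's 2 bulb-high libraries were its highest. The difference was 0.81 ± 1.004 on the log2 scale (interval -1.29 to 2.91). Pvalb was 260, 484 and 615 in HT fluoxetine libraries and 351, 523 and 680 in HT vehicle libraries, with a difference of -0.23 ± 0.23 (interval -0.72 to 0.26). Sst (-0.22 ± 0.31), Lhx6 (-0.20 ± 0.34) and Gad1 (0.20 ± 0.39) also lay within 1 standard error of 0.

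Gad2 (0.01 ± 0.22), Npy (-0.00 ± 0.08) and Vip (-0.04 ± 0.16) had the values nearest to 0. Limma called 2 of 16825 genes (0.0119%), 961 had an unadjusted p under 0.05, edgeR called 2 and DESeq2 called 16 (0.0951%). The bulb score was 1.08 higher with fluoxetine (two-sided exact permutation p = 0.515), and 9 of 9 bulb markers were on the higher side (median 0.69). Striatal markers were on the lower side in 10 of 10 cases (median -0.51), with summed counts of 4002 to 12438 in HT fluoxetine and 5422 to 36224 in HT vehicle libraries, and 0 markers were called. With the score and its square in the fit the members ran from -0.11 (Gad2) to 0.13 (Calb2), and 0 of 10 had an unadjusted p under 0.05, while 0.0297% of all genes were called. With Drd2 as a further covariate the members ran from -0.18 to 0.11, and 1 of 10 had an unadjusted p under 0.05. The lowest limma adjusted p in that fit was 0.287, for Pvalb, and 10 of 16825 genes were called. Within batch P40_L1, that is without HT fluoxetine female 3, the differences ran from -0.26 (Pvalb, Sst) to 0.70 (Calb2).

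The third comparison, HT lithium against HT vehicle, addresses lithium. All 6 lithium libraries are in batch P40_L2 and all vehicle libraries in P40_L1, so lithium and batch cannot be told apart here. Gad2 was 3064, 3575 and 6675 (lowest, median, highest) in HT lithium libraries and 3435, 4786 and 6711 in HT vehicle libraries. HT lithium was below the HT vehicle mean in 5 of 6 libraries, and the ranges overlapped. The difference was -0.28 ± 0.22 (interval -0.74 to 0.18, two-sided exact permutation p = 0.297).

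Gad1 was 5871, 8552 and 25973 in HT lithium libraries and 7373, 8661 and 19776 in HT vehicle libraries (-0.18 ± 0.39). Reln was 1756, 2566 and 6157 in HT lithium libraries and 2386, 2576 and 5346 in HT vehicle libraries (-0.21 ± 0.33). HT lithium male 1, a bulb-high library, held the arm's highest value of both. Sst stood at 0.16 ± 0.31, and Npy (0.07 ± 0.08), Pvalb (0.05 ± 0.23), Cck (0.03 ± 0.16), Lhx6 (0.02 ± 0.34), Vip (-0.04 ± 0.16) and Calb2 (-0.06 ± 1.004) lay closer to 0.

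Limma called 2 of 16825 genes (0.0119%) with lithium, 463 had an unadjusted p under 0.05, edgeR called 0 and DESeq2 called 3 (0.0178%). With the score and its square in the fit, Gad1 stood at -0.20 ± 0.08, Gad2 at -0.29 ± 0.11 and Reln at -0.23 ± 0.09. Their unadjusted p-values were 0.0233, 0.0172 and 0.0216, and their limma adjusted p-values 0.556, 0.514 and 0.545, so none of these 3 passed, against 0.0297% of all genes. Striatal markers were on the lower side with lithium in 10 of 10 cases (median -0.46), with summed counts of 5421 to 10052 in HT lithium and 5422 to 36224 in HT vehicle libraries. Bulb markers had a median difference of -0.38, with 3 of 9 on the higher side, and 0 markers of either list were called. The bulb score itself was 0.16 higher with lithium (two-sided exact permutation p = 0.909), so score and marker median differed in sign. With Drd2 as a further covariate the Gad2 difference was -0.11 ± 0.06 and that of Gad1 -0.12 ± 0.08. Reln had the lowest limma adjusted p of the 10 members in that fit (0.49, against 0.545 without Drd2). There the members ran from -0.21 to 0.17, and 1 of 10 had an unadjusted p under 0.05. Calb2 turned to 0.55 without the 6 bulb-high libraries.

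**Figure D5:**
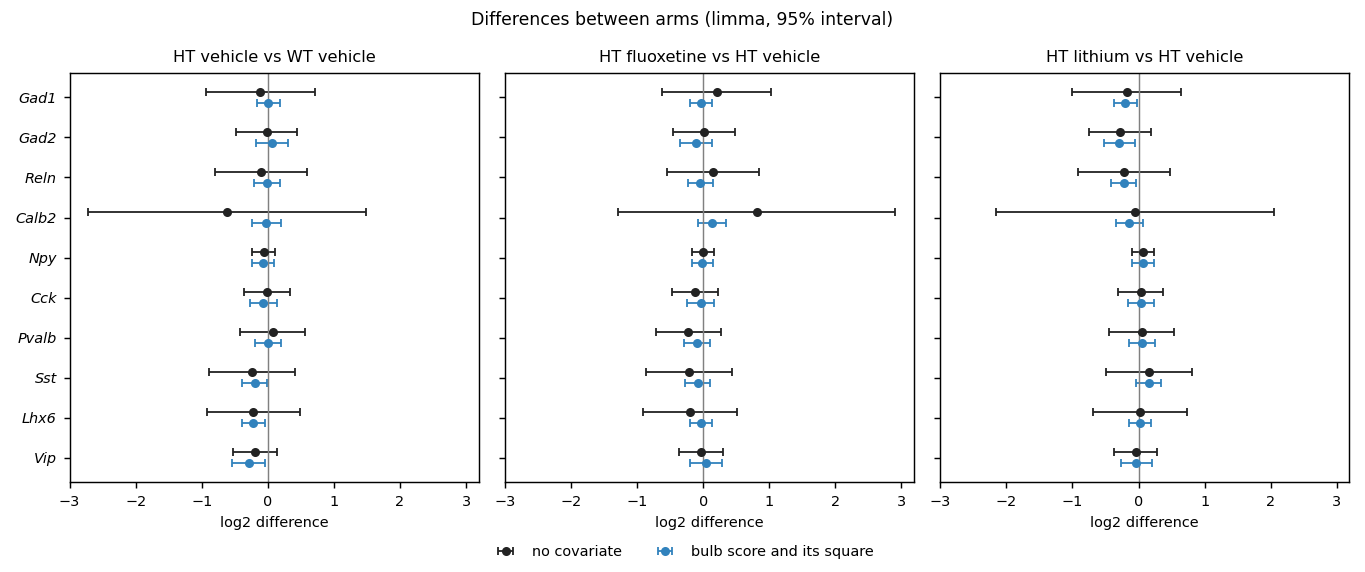
Log2 difference of each member in 3 comparisons between arms, with 95% intervals, without a covariate (black) and with the bulb score and its square in the fit (blue). All black intervals cross 0; the blue ones are narrower, most for Calb2, and 0 of the members passed over all genes in either fit.

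Against WT vehicle, which the first comparison also uses, the drug arms gave values of the same order. In HT fluoxetine against WT vehicle, Sst differed by -0.46 ± 0.31, Lhx6 by -0.42 ± 0.34 and Vip by -0.23 ± 0.16. With the score and its square Sst stood at -0.28 ± 0.09 and Lhx6 at -0.25 ± 0.08 (limma adjusted p = 0.298 for both), in a setting that called 0.0832% of all genes. In HT lithium against WT vehicle, Vip differed by -0.24 ± 0.16, Gad1 by -0.30 ± 0.39, Gad2 by -0.30 ± 0.22 and Reln by -0.32 ± 0.33. The smallest adjusted p of any member in any difference and setting was 0.0927, for Vip in this comparison (-0.40 ± 0.09) with the score, its square and Drd2 as covariates. In both comparisons limma called 0 of 16825 genes (0%), with 737 and 431 at an unadjusted p under 0.05. edgeR called 0 in both, and DESeq2 0.107% and 0.0297%. Limma and edgeR each called 4 genes (0.0238%) between HT lithium and HT fluoxetine, DESeq2 0.178% and limma with the score and its square 0.166%, where the largest member differences were those of Calb2 (-0.86 ± 1.004), Sst (0.38 ± 0.31) and Gad1 (-0.38 ± 0.39). HT lithium is all in batch P40_L2 and 5 of 6 HT fluoxetine libraries are in P40_L1, so this comparison nearly follows batch. With a batch term, which rests on HT fluoxetine female 3 alone, limma called 1 gene, and Calb2 stood at -1.39 ± 2.09, Sst at 0.19 ± 0.64 and Gad1 at -0.43 ± 0.82.

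Sexes were compared in the same fit. The male minus female difference over all arms was between -0.46 ± 0.71 for Calb2 and 0.07 ± 0.24 for Lhx6, and 0 of 10 members were called, against 14 of 16825 genes (0.0832%) by limma, 0.0773% by edgeR and 0.119% by DESeq2. The median Calb2 count was 830 in males and 1867 in females. How far the effect of an arm differed between males and females was tested for the 3 main comparisons, again with 0 members called, and limma and edgeR called 0 of 16825 genes (0%) in each. Their unadjusted p was under 0.05 for 365, 180 and 274 genes, and DESeq2 called 0.00594% in the first and 0% in the others. The largest such value was that of Calb2 for HT vehicle against WT vehicle, 1.75 ± 2.01, with 0.26 ± 1.42 in males and -1.50 ± 1.42 in females.

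Of the related lists, 0 genes were called in the 6 comparisons between arms. Their median differences in HT vehicle against WT vehicle were between -0.20 (somatostatin cell genes) and -0.01 (GABA genes), against the median over all genes given above.

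As a description, each member was correlated over 24 libraries with 14673 protein-coding genes after the group means and the linear bulb slope had been removed. The points share library, depth and any bulb or striatal content that a straight line leaves over. Gad1 was most like the potassium channel partner Kcnip1 (r = 0.974), Gad2 most like Abat (r = 0.967), Sst most like the GTPase gene Rhou (r = 0.975) and Lhx6 most like Phactr1 (r = 0.973). Pvalb was most like Carmil2 (r = 0.939), Cck most like Epop (r = 0.956), Reln most like the calcium channel gene Cacna1c (r = 0.934), Vip most like Ddit4l (r = 0.935) and Calb2 most like Tex15 (r = 0.942). Sst had 305 genes with r over 0.9, Lhx6 167 and Gad1 145, while Npy had 0 and was most like the endothelial receptor gene Kdr (r = 0.876). Among the members themselves, Sst and Lhx6 went together (r = 0.91), as did Gad1 with Reln (r = 0.852), and Gad1 went against Sst (r = -0.905).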

How the data were processed

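Values were used as the authors deposited them, as a normalized signal per Ensembl gene (18240 genes, 24 libraries). The submitters' processing notes name DESeq2 1.19.11, Salmon 0.11.2, R 3.6.0 and build GRCm38 without saying what each was used for. Libraries were made with a stranded mRNA kit, per the labels. The deposited values are whole multiples of 1 read's value in each library (100% whole within 0.01 of a read), so reads were recovered from them; whether these were counted or estimated reads is not given in the sources used here. In HT vehicle female 2 a read is worth 0.997, so its reads rest on the low values of that column. GENCODE M21 gave symbols for 18227 identifiers, all but 13.

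The main test was limma 3.58.1 (R 4.3.3) with a trended prior variance, on log2(value + 1), where the added 1 understates changes of low genes. It used 16825 genes with a mean of at least 10, 8 group means over 24 libraries, Benjamini-Hochberg adjustment over all genes and a call at adjusted p under 0.05. Slopes had the centred bulb score as an added term. edgeR 4.0.16 and DESeq2 1.42.0 were run on recovered reads as alternatives, and the script was tested on simulated data. Permutation tests were exact and two-sided. The 10 members, the related lists and the score genes were chosen with earlier results of these data known, as were the bulb-high and Drd2-high or Ttr-high libraries. All 10 members were named. From each related list up to 4 genes were named, called ones first by smallest p. Those named beyond these (Dlx6, Satb1, Sox6, Kcnc1, Npas1, Prox1, Nr2e1) were chosen after their values were seen. Some genes that this rule names are not reported here. Likeness used protein-coding genes outside the members.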

Additional observations from a re-analysis of the deposited data

Results flagged for a closer look

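Within each arm of 6 libraries, the gap between the extreme library and its nearest neighbour was set against the arm's range, with Dixon's 95% critical value of 0.625. Of 40 groups of member and arm, 11 passed. Chance alone flags about 1 in 20 of independent groups, but the members share the same libraries, so these 40 are not independent. All 11 fell in 2 libraries, each of them its arm's only bulb-high library. HT lithium male 1 (bulb score 11.9) held the arm's highest Gad1 (25973), Gad2 (6675), Reln (6157) and Calb2 (5983) and its lowest Sst (1424), Cck (4266) and Lhx6 (187). WT vehicle female 2 (bulb score 11.97) held the highest Gad1 (25487), Reln (5478) and Calb2 (6604) and the lowest Lhx6 (202). The HT fluoxetine and HT vehicle arms each have 2 bulb-high libraries, and 0 of their groups passed. Where 2 libraries are extreme together, the gap between them is small, so this measure can hardly flag those arms. The 0 flags in those arms therefore do not show that their libraries were more alike, and the part of bulb content in the 11 flags was not tested. By limma, 0 members were called for a difference between the sexes in the effect of an arm.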

How the results depend on the processing

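The count of members with a called slope was 9 with edgeR, pseudocounts of 0.5 and 5, no filter, a mean of at least 50, a batch term, a replicate block and without any single library, and it was 4 without the 6 bulb-high libraries. There the Sst slope turned to 0.0065 and the calls of Gad2 (0.08), Vip (-0.07), Cck (-0.05) and Lhx6 (-0.04) ended, with 6 fewer libraries in the fit. Genes called for the slope numbered 8533, against 1051 in that setting and 7125 to 8991 without any single library. No member was called for any difference in 2690 values under other settings, of which 321 had the other sign; the score's square, Drd2 as covariate, the slope without libraries high in Drd2 or Ttr and the further settings for sex were chosen after seeing the data. Counts of called genes were 0 (0 to 7 under other settings) for HT vehicle against WT vehicle, 2 (0 to 16) for HT fluoxetine and 2 (0 to 8) for HT lithium against HT vehicle, 0 (0 to 31) and 0 (0 to 11) for these against WT vehicle, and 4 (0 to 90) between them; the highest came from DESeq2 or from the score, its square and Drd2, except that the 7 came from the score and its square.

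No label ties equal replicate numbers to a shared animal. Of 36 same-numbered pairs, 12 had deviations that correlated above 0.1 (median r -0.0577, from -0.70 to 0.72). These deviations hold bulb content, and with the bulb slope removed r ran from -0.22 to 0.36. Neither set of values can show whether animals were shared. With the replicate block, 7955 genes and 9 members were called for the slope and 0 members for the differences between arms. The block could not be fitted for male against female, since numbers run within a sex, and DESeq2 was not run for the slope. The least read member had 128 reads in its lowest library; the members' median standard error in HT vehicle against WT vehicle was 0.272, and 0.096 with the score and its square.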
